A study of Mus musculus with 18 samples.

Results

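The breakdown of the branched-chain amino acids leucine, isoleucine and valine was followed through 10 genes of its first steps and of its leucine and valine branches. These were Bcat1, Bcat2, Bckdha, Bckdhb, Dbt, Ivd, Mccc1, Mccc2, Hibch and Aldh6a1, taken by gene symbol from 19938 genes that have a probe set naming 1 gene. Each of the 10 had a single probe set of that kind, so no choice between probe sets was needed. RNA came from adipocytes of male C57BL/6J mice on standard chow, and was measured on 18 Affymetrix gene arrays. Bone marrow adipocytes were flushed from the marrow of femurs and tibias, freed of red cells by lysis and collected by flotation. Epididymal white adipocytes, which the labels call peripheral, were floated after collagenase digestion. Each cell type was taken at 6, 14 and 18 months, which gave 6 groups of 3 arrays, and the 3 arrays of a group were pooled RNA preparations from 6 to 10 animals. The mice carried no engineered allele and received no agent, and the cells were not sorted on a surface marker. The authors deposited log2 values after gcRMA correction and quantile normalization, and all levels below are on that scale. A difference of 1 on it is a 2-fold difference.

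Breakdown starts with a reversible transamination that turns the amino acids into keto acids, run by a cytosolic enzyme (Bcat1) and a mitochondrial one (Bcat2). The branched-chain keto acid dehydrogenase of the mitochondrial matrix then removes a carboxyl group in the step that commits the carbon to oxidation, and this complex is switched off by a kinase (Bckdk) and on by a phosphatase (Ppm1k). Separate branches for each amino acid end in acetyl-CoA, acetoacetate and propionyl-CoA. White adipocytes are known for high activity of this route, which grows as preadipocytes differentiate and supplies carbon for fatty acid synthesis.

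Upstream sequences of 4 of the genes are shown, because Bckdhb and Mccc2 fell furthest in epididymal adipocytes at 14 months, Ivd was the gene that rose in bone marrow and Bcat1 the gene that rose in epididymal adipocytes at 18 months. They are the 250 bases before the annotated start in RefSeq (GRCm38.p6), written 5' to 3' on the strand of the gene, with CCAAT or its reverse complement ATTGG in capitals. The windows are chr9:83924887-83925136 on the plus strand for Bckdhb, chr13:100015640-100015889 on the minus strand for Mccc2, chr2:118861744-118861993 on the plus strand for Ivd and chr6:145076158-145076407 on the minus strand for Bcat1.
Bckdhb: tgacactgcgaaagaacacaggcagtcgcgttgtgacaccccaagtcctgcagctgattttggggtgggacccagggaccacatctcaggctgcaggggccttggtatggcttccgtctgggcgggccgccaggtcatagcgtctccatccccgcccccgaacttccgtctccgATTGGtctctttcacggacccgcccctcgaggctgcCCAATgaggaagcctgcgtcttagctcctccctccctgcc
Mccc2: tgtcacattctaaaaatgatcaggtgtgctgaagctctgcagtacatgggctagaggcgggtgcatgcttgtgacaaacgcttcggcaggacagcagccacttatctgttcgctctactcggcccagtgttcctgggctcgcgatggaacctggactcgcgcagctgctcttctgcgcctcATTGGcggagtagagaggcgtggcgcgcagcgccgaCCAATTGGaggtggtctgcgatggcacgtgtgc
Ivd: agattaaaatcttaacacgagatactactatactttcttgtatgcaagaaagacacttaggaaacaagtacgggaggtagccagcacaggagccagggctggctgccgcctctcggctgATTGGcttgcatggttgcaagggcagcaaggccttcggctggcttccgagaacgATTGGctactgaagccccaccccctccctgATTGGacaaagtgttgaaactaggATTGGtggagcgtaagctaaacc
Bcat1: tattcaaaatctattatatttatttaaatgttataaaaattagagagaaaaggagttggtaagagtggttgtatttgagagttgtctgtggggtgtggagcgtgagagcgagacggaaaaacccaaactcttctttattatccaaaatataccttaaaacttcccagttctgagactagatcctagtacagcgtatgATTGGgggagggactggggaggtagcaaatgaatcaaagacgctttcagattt
The letters occur 2 times in the Bckdhb window, 3 times in that of Mccc2 (where CCAAT and ATTGG overlap by 2 letters), 4 times in that of Ivd and 1 time in that of Bcat1. Of the 10 genes 9 matched the table by symbol, with 13 windows, and Dbt did not. CCAAT or ATTGG stood in 7 of the 13 windows, of 6 genes (Bcat1, Bckdhb, Ivd, Mccc1, Mccc2 and Aldh6a1), and in 33.8% of all 32851 windows of the same length. GGGCGG, the letters of a GC box, stood in 3 of the 13 windows (of Bckdhb, Mccc1 and Hibch) and in 32.7% of all windows, searched on both strands like the others. TATAAA stood in 1 window, of Bcat1, and in 12.4% of all windows. AGGTCA, a nuclear receptor half-site, stood in 3 windows, of Bcat1, Bckdhb and Aldh6a1, and in 14% of all windows, and the longer TCAAGGTCA, which contains it, in 0 of the 13 windows and in 0.387% of all windows. These matches describe letters and no binding was measured.

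Adipocyte markers were checked first, since the labels call both preparations adipocytes. All 19 markers measured (among them Scd1, which desaturates fatty acids, and Dgat2, which makes triglyceride) were lower in bone marrow (median log2 difference -4.18, Scd1 -4.18, Dgat2 -3.68). All 15 neutrophil markers and all 9 erythroid markers were higher in bone marrow, with medians of 5.83 and 4.31. Of the other marker lists, all 5 megakaryocyte markers, 9 of 10 markers of B-lineage cells and 12 of 13 macrophage markers were higher in bone marrow (medians 3.05, 2.67 and 1.48). All 10 endothelial, 8 of 11 fibroblast and 7 of 8 mesothelial markers were lower there (medians -1.44, -2.68 and -1.93). The log2 of the summed level of the adipocyte markers lay at 16.47 to 16.96 on the epididymal arrays and at 12.19 to 12.75 on the bone marrow arrays, and that of the neutrophil markers at 15.72 to 16.18 on the bone marrow arrays. One 6-month epididymal array, replicate 1, had its neutrophil sum at 13.32, against 9.80 and 10.03 on the other arrays of its group, and without it each count of the 10 genes that passed the test was the same. Counts of genes with no overlap between ages then rose from 8 to 9 for 14 against 6 months and from 6 to 7 for 18 against 6 months in epididymal adipocytes. Leaving out any array can only keep or raise such counts, and the share over all probe sets without this array was not counted. Fewer cells of a type and less RNA of a gene in each cell cannot be told apart in such preparations.

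Between the cell types, averaged over the ages, all 10 genes were lower in bone marrow adipocytes and all 10 by at least 2-fold (limma, adjusted p from 1.38e-18 for Bckdhb to 6.26e-12 for Bcat1). Of all 23410 probe sets tested, 31.2% were lower at that threshold and 11.6% lower by at least 2-fold. The median log2 difference was -3.00 for the 10 genes and -0.02 for all probe sets. The differences ran from -1.49 for Bcat1 to -5.03 for Aldh6a1, or from 2.82-fold to 32.7-fold. For all 10 genes the 9 bone marrow arrays lay below the 9 epididymal arrays with no overlap, which held for 27.6% of all probe sets in either direction. The median of adipocyte markers in the same comparison was -4.18 and that of the neutrophil markers 5.83. The mean difference of the 19 adipocyte markers, -4.48, was larger than that of 9 of the 10 genes, the exception being Aldh6a1, so relative to that mean these 9 genes stood higher in bone marrow. At 6 months alone 3 genes (Bckdhb, Mccc1 and Aldh6a1) were lowered more than the marker mean of -4.33. At 14 and at 18 months Aldh6a1 alone was lowered more than the marker mean of its age. The part of these markers in the result was not tested.

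**Figure D1:**
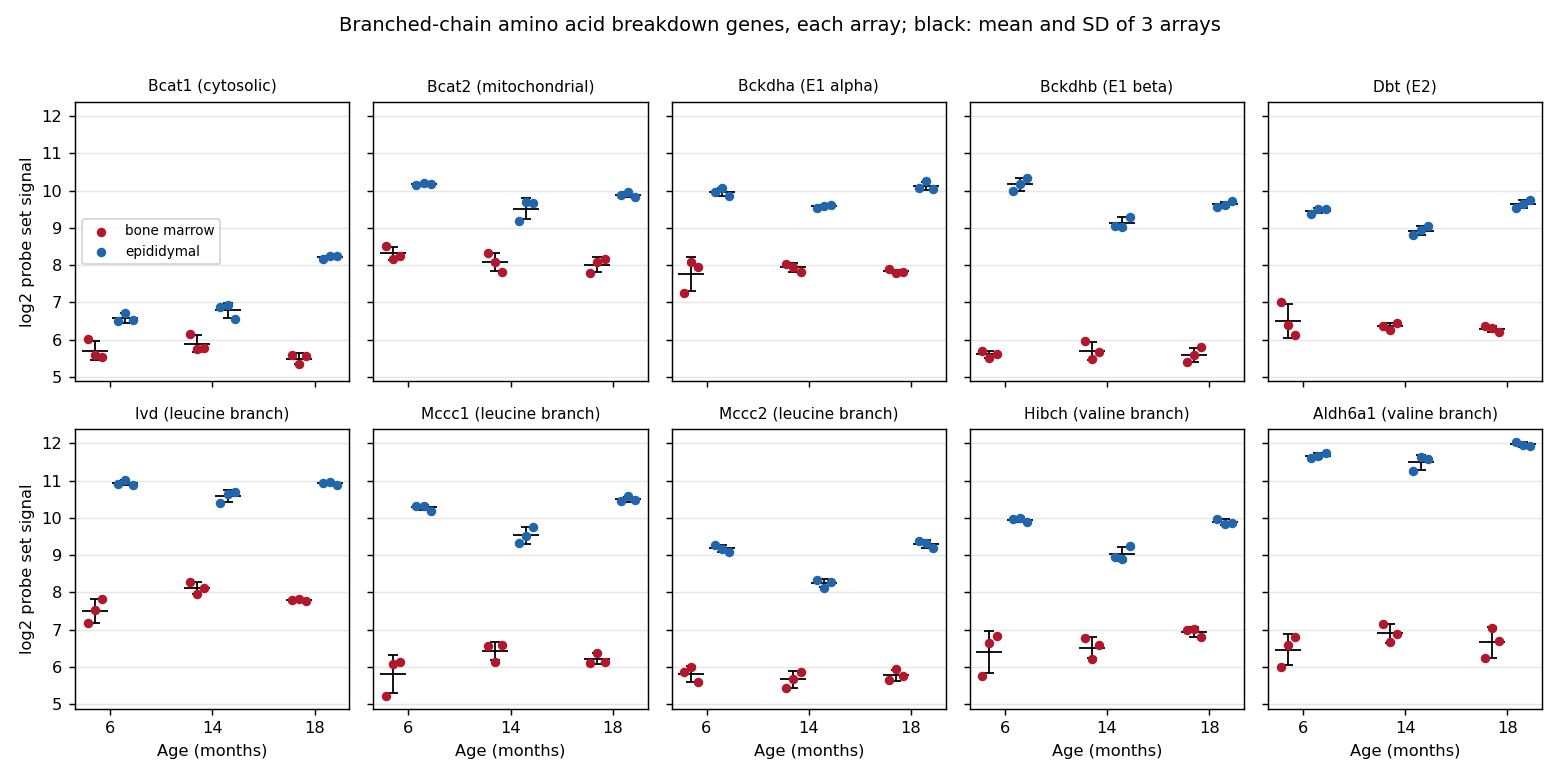
Log2 level of each of the 10 genes (1 panel a gene) on every array by age in months, with bone marrow and epididymal arrays in separate colours and black bars for the mean and SD of 3 arrays. The bone marrow points lie below the epididymal points in all 10 panels, and the epididymal points of Mccc2, Hibch and Bckdhb dip at 14 months.

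The aminotransferases were the genes with the smallest differences between the cell types. Bcat1, the cytosolic enzyme, had values of 6.49, 6.72 and 6.52 in epididymal adipocytes at 6 months, 6.88, 6.92 and 6.56 at 14 months and 8.16, 8.24 and 8.24 at 18 months. The bone marrow arrays had 6.01, 5.58 and 5.54, then 6.16, 5.75 and 5.77, then 5.58, 5.34 and 5.57. The 18-month epididymal arrays thus stood above all others, while in bone marrow the 18-month arrays lay just below those of 14 months and overlapped those of 6 months. The difference between the cell types was -0.87 ± 0.15 (SE) at 6 months and -0.89 at 14 months, both under 2-fold, and -2.72 at 18 months, a 6.58-fold difference.

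Bcat2, the mitochondrial enzyme and the usual form outside brain, had 10.15, 10.21 and 10.17 in epididymal adipocytes at 6 months, 9.19, 9.69 and 9.66 at 14 months and 9.88, 9.96 and 9.82 at 18 months. Its bone marrow values were 8.51, 8.17 and 8.25, then 8.33, 8.09 and 7.83, then 7.78, 8.07 and 8.16. The epididymal groups did not overlap each other, with 14 months lowest, and of the bone marrow groups only those of 6 and 18 months did not. Averaged over the ages Bcat2 was lower in bone marrow by a log2 difference of -1.73 ± 0.088 (SE), which is 3.31-fold.

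The dehydrogenase complex is built of a decarboxylase whose subunits are Bckdha and Bckdhb, and of the Dbt transacylase core. Bckdha had 9.95, 10.06 and 9.85 in epididymal adipocytes at 6 months, 9.54, 9.58 and 9.62 at 14 months and 10.07, 10.25 and 10.04 at 18 months. Its bone marrow values were 7.26, 8.09 and 7.94, then 8.04, 7.96 and 7.82, then 7.89, 7.79 and 7.82. The bone marrow groups overlapped, with 1 array of the 6-month group well below the rest, and the log2 difference over the ages was -2.04 ± 0.090 (SE).

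Bckdhb had 10.00, 10.18 and 10.34 in epididymal adipocytes at 6 months, 9.05, 9.02 and 9.30 at 14 months and 9.56, 9.61 and 9.71 at 18 months, so that the 3 ages did not overlap. Bone marrow arrays had 5.69, 5.52 and 5.61, then 5.96, 5.47 and 5.67, then 5.40, 5.58 and 5.80, which overlapped at all ages. The difference over the ages was -4.01 ± 0.080 (SE), or 16.1-fold, against 4.11-fold for Bckdha, the other subunit of the same decarboxylase. In bone marrow Bckdhb stood at percentiles 44.3 to 46.4 of all tested probe sets and Bckdha at 73.7 to 75.5. Dbt had 9.38, 9.52 and 9.49, then 8.79, 8.95 and 9.04, then 9.54, 9.64 and 9.74 in epididymal adipocytes at the 3 ages. Its bone marrow values were 7.01, 6.40 and 6.12, then 6.36, 6.26 and 6.45, then 6.35, 6.3 and 6.21, and its difference over the ages was -2.96 ± 0.092 (SE), or 7.77-fold. Epididymal Dbt was lowest at 14 months, and bone marrow Dbt overlapped between ages, with 1 high array at 6 months.

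In the leucine branch, Ivd dehydrogenates isovaleryl-CoA. Its epididymal values were 10.92, 11.02 and 10.89 at 6 months, 10.40, 10.65 and 10.70 at 14 months and 10.94, 10.96 and 10.88 at 18 months, and its bone marrow values 7.18, 7.54 and 7.82, then 8.29, 7.96 and 8.12, then 7.79, 7.83 and 7.76. The 14-month arrays were the lowest in epididymal adipocytes and the highest in bone marrow. The difference over the ages was -3.01 ± 0.079 (SE), or 8.03-fold.

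Mccc1 and Mccc2 are the subunits of methylcrotonyl-CoA carboxylase, a biotin enzyme that acts after Ivd. Mccc1 had 10.33, 10.32 and 10.20, then 9.32, 9.50 and 9.76, then 10.46, 10.58 and 10.47 in epididymal adipocytes at 6, 14 and 18 months. In bone marrow it had 5.22, 6.09 and 6.14, then 6.55, 6.14 and 6.59, then 6.12, 6.38 and 6.15, and 1 array of the 6-month group lay below the others. Mccc2 had 9.28, 9.16 and 9.10, then 8.34, 8.12 and 8.29, then 9.38, 9.33 and 9.19 in epididymal adipocytes, and 5.87, 6.00 and 5.59, then 5.44, 5.69 and 5.87, then 5.64, 5.94 and 5.77 in bone marrow. Both subunits were lowest at 14 months in epididymal adipocytes. Their differences over the ages were -3.95 ± 0.11 (SE) for Mccc1 and -3.15 ± 0.076 (SE) for Mccc2.

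In the valine branch, Hibch removes CoA from hydroxyisobutyryl-CoA and Aldh6a1 oxidizes methylmalonate semialdehyde to propionyl-CoA. Hibch had 9.98, 9.99 and 9.88, then 8.94, 8.89 and 9.25, then 9.97, 9.82 and 9.86 in epididymal adipocytes, with the 14-month arrays below the rest. In bone marrow Hibch had 5.77, 6.65 and 6.82, then 6.77, 6.21 and 6.58, then 7.0, 7.02 and 6.80. Its difference over the ages was -3.00 ± 0.12 (SE).

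Aldh6a1 had 11.60, 11.66 and 11.73 in epididymal adipocytes at 6 months, 11.27, 11.64 and 11.57 at 14 months and 12.04, 11.95 and 11.92 at 18 months. In bone marrow it had 6.00, 6.59 and 6.80, then 7.15, 6.66 and 6.89, then 6.23, 7.06 and 6.70, which overlapped between ages. Its difference over the ages, -5.03 ± 0.12 (SE) or 32.7-fold, was the largest of the 10 genes. The 18-month epididymal arrays were the highest for this gene, and the 6- and 14-month arrays overlapped.

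At each age taken alone all 10 genes were lower in bone marrow adipocytes, against 24.3%, 24.2% and 25.5% of all probe sets at 6, 14 and 18 months. The count lower by at least 2-fold was 9, 9 and 10, where 11.8%, 11.5% and 12.9% of all probe sets passed. No gene overlapped between the cell types at any age, as for 48.2%, 57% and 58.3% of all probe sets in either direction. The median difference of the 10 genes was -3.39 at 6 months, -2.54 at 14 months and -3.24 at 18 months. Mccc1 stood at -4.47, -3.10 and -4.29, Bckdhb at -4.57, -3.42 and -4.04 and Ivd at -3.43, -2.46 and -3.13 at the 3 ages. Aldh6a1, with -5.21, -4.59 and -5.30, had the largest difference at every age. Of the 10 genes, 9 had their smallest difference at 14 months, and Bcat1 differed by nearly the same amount at 6 and 14 months. The tests of those changes are given with the comparison of the age changes.

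**Figure D2:**
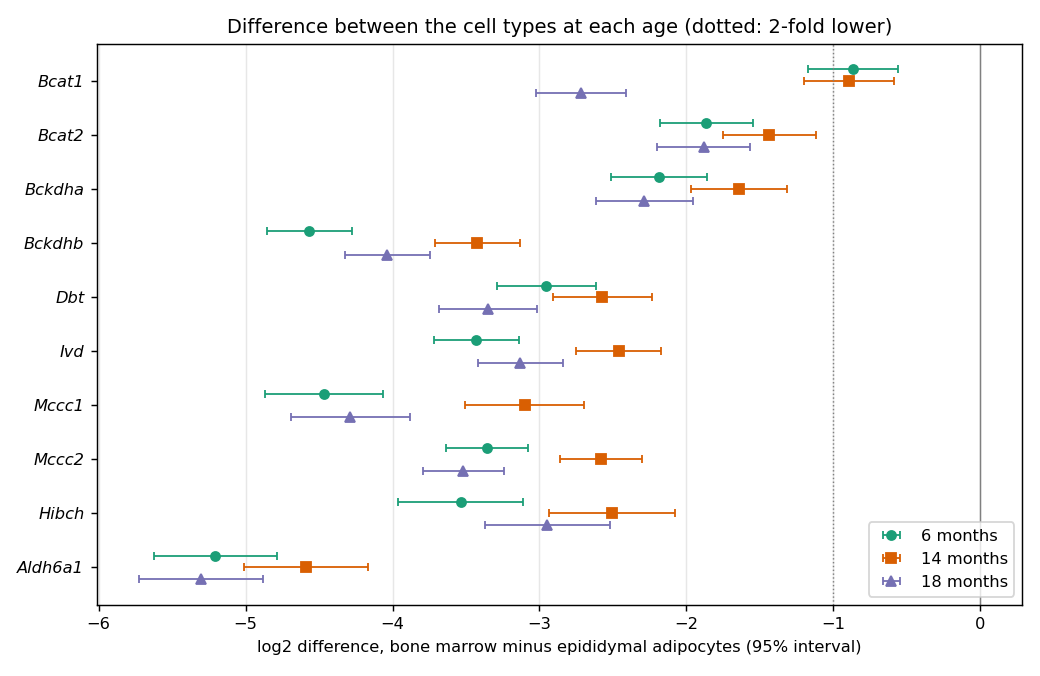
Log2 difference, bone marrow minus epididymal, of each of the 10 genes at 6, 14 and 18 months (points) with 95% intervals from limma, and a dotted line at a 2-fold lower level. All points lie below 0, and the points of Bcat1 at 6 and 14 months (-0.87 and -0.89) lie above the dotted line.

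Epididymal adipocytes were compared between ages to see how the pathway moved within one depot. At 14 months 6 of the 10 genes had fallen relative to 6 months, against 7.51% of all probe sets. Bckdhb fell by 1.05 ± 0.14 (SE) on the log2 scale, or 2.07-fold (adjusted p 2.04e-05 by limma), and Mccc2 by 0.93 ± 0.13 (adjusted p 4.94e-05). Hibch fell by 0.92 ± 0.20 (adjusted p 0.00310), Mccc1 by 0.75 ± 0.19 (0.00923), Bcat2 by 0.66 ± 0.15 (0.00438) and Dbt by 0.54 ± 0.16 (0.0248). Both subunits of methylcrotonyl-CoA carboxylase were therefore among the genes that fell. Of the decarboxylase subunits Bckdhb did so, and Bckdha had -0.37 (adjusted p 0.121) with no overlap between the ages. Without 6-month bone marrow replicate 1 Bckdha was called as well (adjusted p 0.0115 by limma). The decarboxylase subunits were not tested against each other. Ivd had -0.36 (0.0822), Aldh6a1 -0.17 (0.631) and Bcat1 0.21 (0.394). By limma and by the ordinary analysis of variance 0 of the 10 genes rose, where 10.2% of all probe sets rose at the adjusted threshold by limma. At an unadjusted p under 0.05 by limma 0 of the 10 rose as well, a threshold at which all probe sets were not counted. The arrays of the 2 ages did not overlap for 8 of the 10 genes, as for 35.9% of all probe sets, and the median change was -0.60 for the 10 genes and -0.04 for all probe sets. The count of 6 was 4 without 14-month epididymal replicate 1 and 8 without 6-month bone marrow replicate 1, an array that enters through the shared estimate of the spread. Dbt was not called without 6-month replicates 2 (adjusted p 0.0803) or 3 (0.0720) or 14-month replicates 1 (0.109) or 2 (0.0599), and Mccc1 without 14-month replicate 1 (0.0564).

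From 14 to 18 months 7 of the 10 genes rose in epididymal adipocytes, against 11.7% of all probe sets. These were Bcat1 (1.43, adjusted p 6.59e-07 by limma), Mccc2 (1.05, 8.19e-06), Mccc1 (0.97, 0.000846), Hibch (0.86, 0.00382), Dbt (0.71, 0.00261), Bckdha (0.54, 0.0161) and Bckdhb (0.50, 0.0113). Aldh6a1 had 0.48 (adjusted p 0.0959), Bcat2 0.37 (0.0869) and Ivd 0.34 (0.0805). For all 10 genes the 18-month arrays lay above the 14-month arrays, where the ages did not overlap for 46.2% of all probe sets in either direction. The median change was 0.63, and -0.01 for all probe sets. The call of Bckdha was lost without 14-month replicate 1 (adjusted p 0.0513) or 18-month replicate 2 (0.0756), and that of Bckdhb without 14-month replicate 2 (0.0532). The comparisons of 14 with 6 and of 18 with 14 months share the 14-month arrays, so a low 14-month group enters both.

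Between 6 and 18 months 1 gene of the 10 rose and 1 fell in epididymal adipocytes, where 8.22% of all probe sets rose and 8.01% fell. Bcat1 rose by 1.63 ± 0.15 (SE) on the log2 scale, or 3.11-fold (adjusted p 5.11e-07 by limma), and its 18-month arrays lay above all 6 arrays of the younger ages. Bckdhb fell by 0.55 ± 0.14 (adjusted p 0.0111), a call that was lost without 6-month replicate 3 (0.0666) or 18-month replicate 1 (0.0544). The median change of the 10 genes was 0.14, and the 2 ages did not overlap for 6 of them, as for 41.7% of all probe sets. Relative to the 6-month mean of the same cell type, the mean of the 10 genes lay at -0.66, -0.54 and -0.46 on the 14-month arrays and at 0.16, 0.20 and 0.15 on the 18-month arrays.

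**Figure D3:**
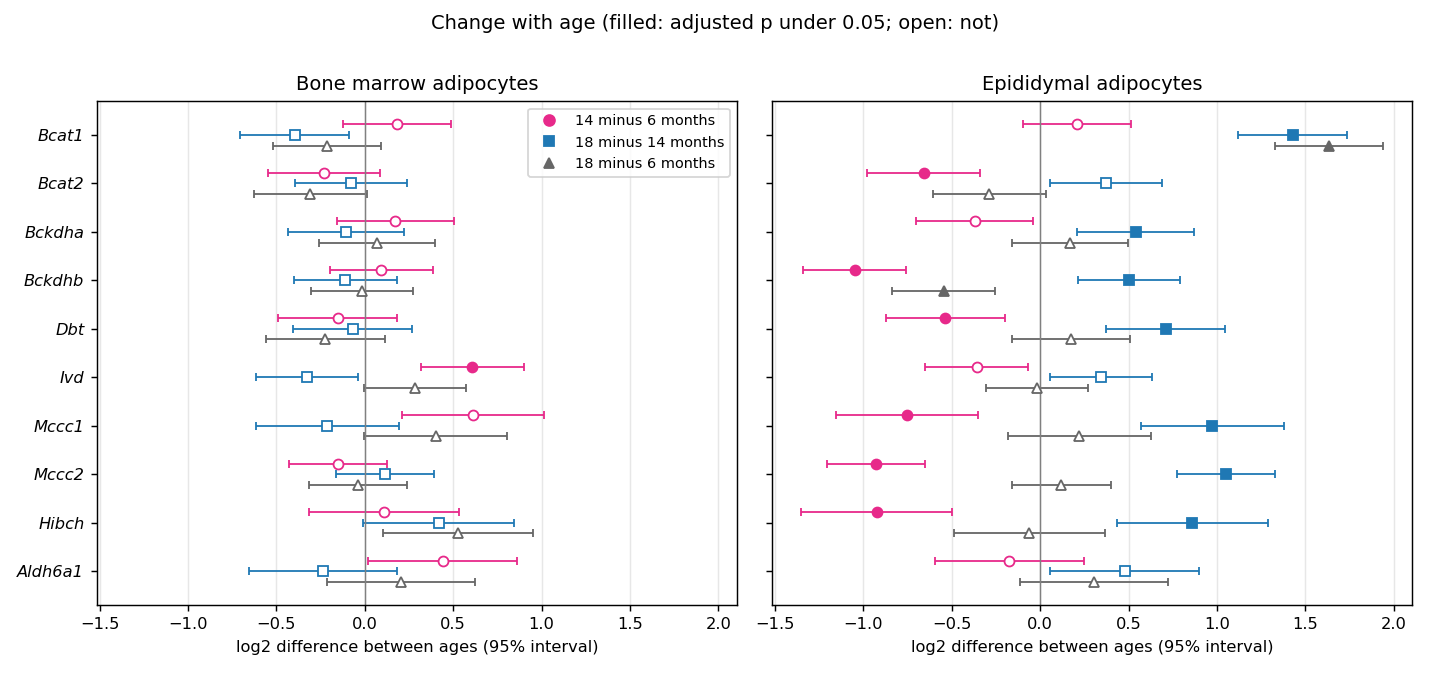
Log2 change of each of the 10 genes between ages in bone marrow (one panel) and in epididymal adipocytes (the other), for 14 minus 6, 18 minus 14 and 18 minus 6 months, with 95% intervals, filled where the adjusted p was under 0.05. In epididymal adipocytes 6 genes are filled below 0 at 14 minus 6 months and 7 above 0 at 18 minus 14 months, while in bone marrow Ivd at 14 minus 6 months is the only filled point.

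Markers of other cells moved with the same epididymal groups. From 6 to 14 months 12 of 13 macrophage and monocyte markers rose and 1 fell (median 2.20, with the lysozyme gene Lyz2 at 2.44 and the lysosomal membrane gene Cd68 at 2.40). In the same comparison 10 of 11 fibroblast and progenitor markers rose (median 1.45), as did 7 of 10 endothelial markers (0.87) and 6 of 8 mesothelial markers (0.95). From 14 to 18 months all 13 macrophage markers fell (median -3.89) and so did 9 of 11 fibroblast markers (-1.66) and all 10 endothelial markers (-1.83). Summed over the list, the macrophage markers lay at 11.44 to 12.04 at 6 months, 13.73 to 14.20 at 14 months and 10.20 to 10.33 at 18 months.

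Adipocyte markers moved less. Of 19, 3 fell and none rose at the adjusted threshold from 6 to 14 months (median -0.26), and 6 rose from 14 to 18 months (0.39). Their summed level was 16.76 to 16.79, 16.47 to 16.66 and 16.87 to 16.96 at the 3 ages, and that of the 10 genes of the pathway 13.53 to 13.60, 12.91 to 13.19 and 13.62 to 13.68. Scaled so that the 19 adipocyte markers had the same mean on every array, the median change of the 10 genes was -0.35 from 6 to 14 months (all probe sets 0.21) and 0.16 from 14 to 18 months (all probe sets -0.47). On that scale Bckdhb, Mccc2, Hibch and Bcat2 fell and Bcat1 rose (0.45) from 6 to 14 months, and Bcat1, Mccc2 and Mccc1 rose from 14 to 18 months. From 6 to 14 months the share of all probe sets called on that scale is not given here. The part of the macrophage, fibroblast and endothelial markers in the age changes was not tested.

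**Figure D4:**
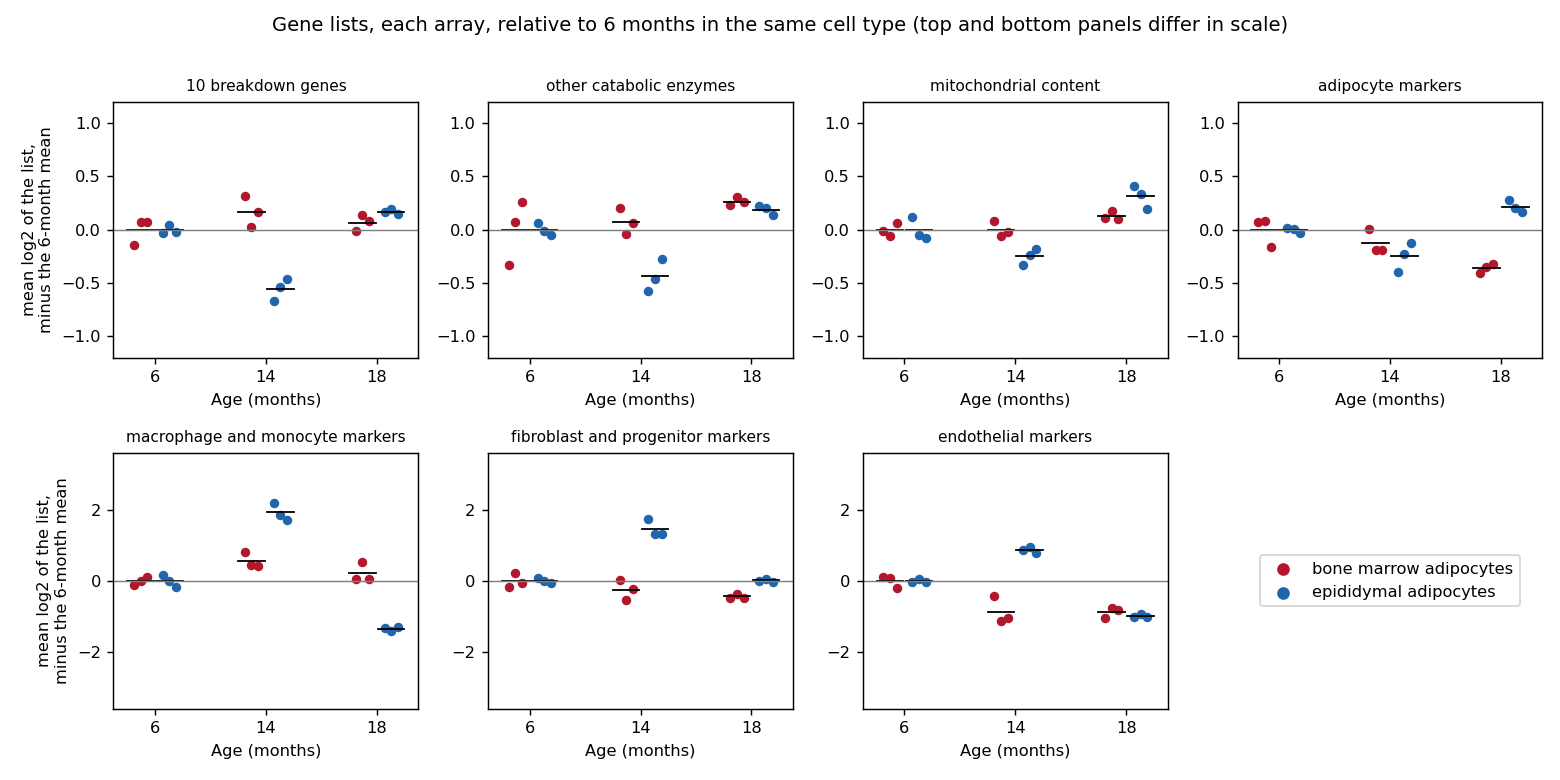
Mean log2 level of 7 gene lists on each array, minus the 6-month mean of the same cell type, by age and cell type. The 10 genes lie at -0.66 to -0.46 on the 14-month epididymal arrays, where the macrophage and fibroblast markers lie above 0.

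In bone marrow adipocytes 1 of the 10 genes passed the test between ages. Ivd rose from 6 to 14 months by 0.61 ± 0.14 (SE) on the log2 scale (adjusted p 0.00886 by limma), where 5.08% of all probe sets rose and 3.58% fell, and its 14-month arrays lay above its 6-month arrays. The same held for Mccc1, so that 2 of the 10 genes did not overlap, as did 19.9% of all probe sets. When only the 6- and 14-month bone marrow arrays were fitted the adjusted p was 0.177. Mccc1 had 0.61 (adjusted p 0.0556) and Aldh6a1 0.44 (0.203), and 3 of the 10 genes were higher and 0 lower at an unadjusted p under 0.05. The share of all probe sets at an unadjusted p was not counted in any of these comparisons. From 6 to 18 months 0 of 10 genes passed by limma, where 3.37% of all probe sets rose and 5.13% fell at the adjusted threshold. At an unadjusted p under 0.05, 1 gene was higher and 0 lower. Hibch had the largest value, 0.53 (adjusted p 0.118), and the ages did not overlap for 1 gene, Bcat2, as for 20.2% of all probe sets. From 14 to 18 months 0 of 10 passed, where 4.75% of all probe sets rose and 8.23% fell at the adjusted threshold. At an unadjusted p under 0.05, 0 genes were higher and 2 lower (Bcat1 -0.40 and Ivd -0.33). Bcat1, Ivd and Hibch did not overlap between these ages, 3 of 10 genes against 31.7% of all probe sets. The ordinary analysis of variance also called 0 in both comparisons with 18 months. Scaled to equal adipocyte markers, 2, 4 and 1 of the 10 genes rose in the 3 comparisons, where the median of all probe sets moved to 0.10, 0.30 and 0.20. Without the share of all probe sets called on that scale, which is not given here, these counts are not read as particular to the 10 genes. The count of rises from 6 to 18 months was 2 without 6-month replicate 3, and 1 gene rose and 1 fell from 14 to 18 months without 6-month replicate 1.

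The bone marrow groups were noisier for these genes than the epididymal groups of the same age. The median SD of the 10 genes between the 3 arrays was 0.37 in 6-month bone marrow, against 0.22 for all probe sets, then 0.24 and 0.14 at the older ages. On the epididymal arrays it was 0.073, 0.18 and 0.075 at the 3 ages. Replicate 1 of the 6-month bone marrow group was the lowest of its group for Bckdha, Ivd, Mccc1, Hibch and Aldh6a1. Among cell type markers, 8 of 10 markers of B-lineage cells rose from 6 to 14 months (median 1.07) and 9 of 10 fell from 14 to 18 months (-0.99), and 8 of 10 endothelial markers fell from 6 to 14 months (-0.91). Their part in the bone marrow values was not tested.

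The age changes were compared between the cell types as the change in bone marrow minus the change in epididymal adipocytes. For 14 minus 6 months 5 of the 10 genes had a higher value, against 5.07% of all probe sets, and 0 a lower one, against 6.53%. They were Mccc1 (1.37, adjusted p 0.00219 by limma), Bckdhb (1.14, 0.000554), Hibch (1.03, 0.0238), Ivd (0.97, 0.00233) and Mccc2 (0.78, 0.00946). For Bckdhb, Mccc1, Mccc2 and Hibch the fall in epididymal adipocytes was called. Their bone marrow changes (0.09, 0.61, -0.15 and 0.11) were not. For Ivd the bone marrow rise was called and the epididymal change was not. Mccc1 and Ivd nevertheless had bone marrow changes of like size, both 0.61 (adjusted p 0.0556 and 0.00886 by limma). In 6-month bone marrow Bckdhb, Mccc1, Mccc2 and Hibch stood at percentiles 44.3, 47.4, 47.5 and 55.6 of all tested probe sets. The part of these levels in the difference was not tested. For 18 minus 6 months 1 gene differed, Bcat1 with -1.85 (adjusted p 2.74e-05), where 5.02% of all probe sets were lower and 3.49% higher. The call of Hibch for 14 minus 6 months was lost with all probe sets of the table (adjusted p 0.0511), by the ordinary analysis of variance (0.0649) and with only the compared groups fitted (0.0730). It was also lost without any 1 of 5 arrays, which were 6-month epididymal replicate 2 (adjusted p 0.0530), 14-month epididymal replicates 1 (0.0571) and 2 (0.0628) and 14-month bone marrow replicates 1 (0.0660) and 3 (0.0567). Scaled to equal adipocyte markers, 3 of the genes were higher for 14 minus 6 months and 5 for 18 minus 6 months, where the median of all probe sets was -0.11 and 0.59. The share of all probe sets called on that scale is not given here, so these counts are not read as particular to the 10 genes.

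For 18 minus 14 months, a comparison added after the values had been seen, 6 of the 10 genes had a lower value, against 8.06% of all probe sets, and 0 a higher one, against 7.74%. They were Bcat1 (-1.82, adjusted p 5.69e-06 by limma), Mccc1 (-1.19, 0.00506), Mccc2 (-0.93, 0.00179), Dbt (-0.78, 0.0236), Ivd (-0.67, 0.0238) and Bckdhb (-0.61, 0.0395). Ivd was called here although neither of its changes within a cell type was. Without 14-month epididymal replicate 1 the calls of Dbt (adjusted p 0.0613), Ivd (0.0687) and Bckdhb (0.0873) were lost and 3 remained, and leaving out other arrays of these groups also lost Dbt (3 arrays), Ivd (4) and Bckdhb (8). With all arrays kept, Bckdhb was not called with all probe sets of the table (adjusted p 0.0565), by the ordinary analysis of variance (0.0551), after repeated quantile normalization (0.0991) or with equal ribosomal protein genes (0.0823), nor Dbt after repeated quantile normalization (0.0571). Scaled to equal adipocyte markers 1 gene was lower, where the median of all probe sets was 0.68 and the share called is not given here. This comparison shares the 14-month arrays with that of 14 minus 6 months.

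The control of the dehydrogenase was read from its kinase and phosphatase. Bckdk, the kinase that inactivates the complex, had 9.25, 9.08 and 9.0 in epididymal adipocytes at 6 months, 9.12, 9.32 and 9.14 at 14 months and 9.42, 9.48 and 9.28 at 18 months. The bone marrow arrays had 8.65, 8.51 and 8.68, then 8.65, 8.61 and 8.44, then 8.53, 8.60 and 8.60, all below the epididymal arrays. The log2 difference over the ages was -0.65, smaller than that of any of the 10 genes.

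Ppm1k, the phosphatase that activates the complex, had 7.64, 8.05 and 7.61, then 7.72, 7.63 and 7.67, then 8.05, 7.98 and 8.02 in epididymal adipocytes. In bone marrow it had 6.46, 6.70 and 7.17, then 7.69, 7.39 and 7.79, then 7.32, 7.29 and 7.17. Its bone marrow arrays lay below the epididymal ones at 6 and 18 months and overlapped them at 14 months. The log2 difference was -0.99, -0.05 (adjusted p 0.838 by limma) and -0.76 at the 3 ages. In bone marrow Ppm1k rose from 6 to 14 months by 0.85 (adjusted p 0.00230, or 0.0959 when only those arrays were fitted), and that change differed from the epididymal one by 0.94 (adjusted p 0.00819).

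The rest of the pathway was described by lists. Averaged over the ages, all 12 other catabolic enzymes measured were at least 2-fold lower in the bone marrow preparations, against 11.6% of all probe sets. Their median was -2.42. Among them were both subunits of propionyl-CoA carboxylase (Pccb -3.61, Pcca -3.30), Acadsb of the isoleucine branch (-3.13) and the mutase Mmut (-2.82). Dld, the dehydrogenase subunit shared with other complexes, had -1.71 and Auh, the hydratase after methylcrotonyl-CoA carboxylase, -1.70. In epididymal adipocytes 6 of the 12 fell from 6 to 14 months (median -0.47, with Dld -0.90, Auh -0.70 and Pcca -0.56), against 7.51% of all probe sets. From 14 to 18 months 9 of 12 rose (0.65, with Dld 1.27 and Auh 1.02), against 11.7%. In bone marrow 4 of the 12 rose from 6 to 18 months (median 0.25), against 3.37% of all probe sets. They were Pccb (0.94), Dld (0.76), Mmut (0.72) and Acat1 (0.43), a ketothiolase.

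The transporter genes did not all share the direction of the enzymes. Of 6 transporter genes 3 were higher in bone marrow averaged over the ages, against 26.9% of all probe sets, and 2 lower, against 31.2%. Slc7a5, the light chain of the large neutral amino acid exchanger, was higher by 2.86, and the uniporter genes Slc43a1 and Slc43a2 by 1.82 and 0.83. Scaled to ribosomal protein genes, Slc43a2 had 0.15 and was not called. Slc7a8, another exchanger light chain, was lower (-1.57), and so was Slc25a44, the mitochondrial carrier of branched-chain amino acids (-1.01). Slc3a2, the heavy chain that both light chains pair with, had -0.00 (adjusted p 0.987 by limma). In epididymal adipocytes Slc43a1 fell by 0.97 and Slc43a2 rose by 0.82 from 6 to 14 months.

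Genes that serve these reactions were lower in bone marrow as well. All 8 cofactor and electron transfer genes were lower (median -1.38), among them the electron transfer flavoprotein genes Etfa (-2.37) and Etfdh (-1.94), the biotin recycling gene Btd (-1.86) and the lipoic acid synthase Lias (-1.46). All 6 genes of related dehydrogenase complexes were lower (median -1.50), with Dlat at -2.10, Pdha1 at -1.93, Pdhb at -1.75 and Pdhx at -1.25, all parts of pyruvate dehydrogenase. Of 11 mitochondrial content genes 8 were lower and 1 higher (median -1.05), with the chaperones Hspa9 (-1.82) and Hspd1 (-1.33), the cristae gene Immt (-1.40) and citrate synthase Cs (-1.40) named. All 8 regulators listed were lower (median -2.25), among them Cebpa (-3.23), Pparg (-2.82), Srebf1 (-2.35) and Klf15 (-2.32), transcription factors of adipocytes and of amino acid and lipid metabolism. For all probe sets the median in this comparison was -0.02, with 31.2% lower and 26.9% higher.

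Falls in these lists from 6 to 14 months in epididymal adipocytes were counted, where 7.51% of all probe sets fell. Rises in these lists over the same ages are not given here. In that comparison 1 of 8 cofactor genes fell (Etfa, -1.13), as did 1 of 6 related complex genes and 2 of 11 mitochondrial genes, with medians of -0.30, -0.27 and -0.26. From 14 to 18 months 4 of 8, 4 of 6 and 7 of 11 of them rose, against 11.7% of all probe sets, with medians of 0.58, 0.60 and 0.61. The 10 genes had medians of -0.60 and 0.63 in these comparisons. Relative to the 6-month epididymal mean, the mean of the regulators lay at -0.35, -0.26 and -0.11 on the 14-month epididymal arrays. On the 18-month epididymal arrays it lay at 0.28, 0.27 and 0.20.

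**Figure D5:**
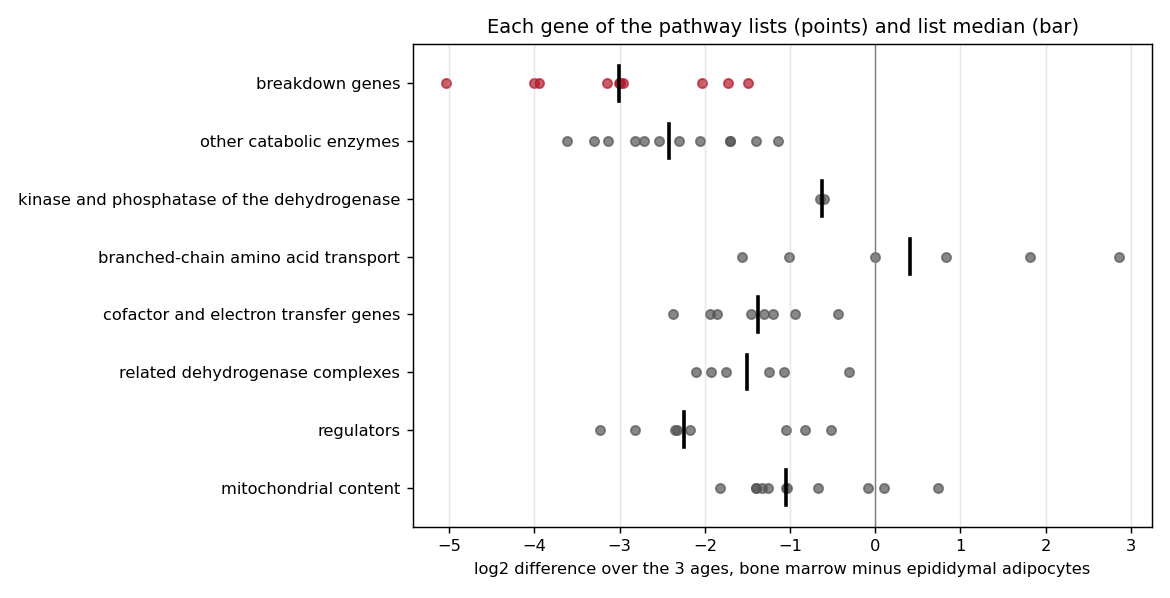
Log2 difference, bone marrow minus epididymal averaged over the ages, of each measured gene (points) in 8 lists, with a bar at the median of the list. The medians run from -3.00 for the 10 genes and -2.42 for the other catabolic enzymes to -1.05 for mitochondrial content, and the transporter genes lie on both sides of 0.

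How the 10 genes varied together was described over the 18 arrays after the mean of each cell type had been taken off, so that age groups and array preparation are what the points share. Mccc1 followed Ivd (Pearson r 0.88), Bckdha (0.86), Hibch (0.84) and Aldh6a1 (0.81), and Bcat2 followed Bckdhb (0.78). Replicate 1 of 6-month bone marrow was the lowest of its group for Mccc1, Ivd, Bckdha, Hibch and Aldh6a1. That 1 array therefore enters all r between them, and values without it were not computed. Bcat1 had r from -0.07 to Bckdhb and 0.04 to Bcat2 up to 0.53 to Dbt. By the same measure, the genes most like the mean of the 10 were Gadd45g (0.95), Auh (0.93), Etf1 (0.92), Tars2 (0.92) and Ecsit (0.91), ranked from 19928 genes. Those most like Bcat1 were Zfp708 (0.95), Mtap (0.93), Hoxc10 (0.91), Hapln3 (0.91) and Mvk (0.91). Those most like Bcat2 were Gys1 (0.93), Echdc2 (0.90), Angptl4 (0.90), Nol6 (0.89) and Lrrc58 (0.88), ranked like those of Bcat1 from 19937 genes. These are the highest of many values over a small number of arrays and are given as a description.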

How the data were processed

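RNA of bone marrow and epididymal adipocytes was hybridized to 18 mouse gene arrays, 3 for each of 6 groups, each array carrying a pooled preparation of several male mice. The authors corrected the scans with gcRMA and normalized them by quantiles in Partek, and deposited the log2 values that are analysed here unchanged. Quantile normalization gives the arrays nearly one distribution, and the array medians lay between 5.33 and 5.65, so a shift shared by most genes cannot be seen. The lowest medians, 5.33, 5.37 and 5.39, were those of the 18-month epididymal arrays. The genome build of the probe sets is not given in the sources used here. Raw scans were not used here.

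Of 35556 probe sets, the 23410 with a gene name were tested. Genes are given from probe sets naming 1 gene, by the one with the highest mean. All arrays were fitted together in limma 3.58.1 (R 4.3.3), each group having its own mean, and moderated t tests were corrected by the Benjamini-Hochberg method over all tested probe sets of a comparison. A call needed an adjusted p under 0.05, and counts at least 2-fold also a fold of 2. The 3 arrays of a group are pools, so p-values measure the spread between pools, and the number of arrays limits the precision. Each mouse gave both cell types, which the model did not use, since pools of the same number are not stated to share mice. Age and any difference in the handling of the age groups cannot be told apart.

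The 10 genes and the 17 gene lists, which have 15 genes without a probe set of their own, were chosen with earlier results of these data known. The genes named from other lists were the 4 with the largest difference between the cell types and the 2 with the largest age change, and from each marker list the 2 with the highest mean. Likeness was ranked by Pearson r. Alternatives changed the test, the variance prior, array weights, the scaling, the probe sets, the groups fitted, the thresholds and a replicate block, and left out each array in turn. The fit was tested on simulated data with known changes. Promoter windows came from RefSeq (GRCm38.p6), and figures were made with Python 3.11.15 and matplotlib 3.10.9.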

Additional observations from a re-analysis of the deposited data

Results flagged for a closer look

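The age changes of these genes differed between the cell types by limma's test of the difference itself, given as the log2 change in bone marrow minus that in epididymal adipocytes. For 14 minus 6 months Mccc1 had 1.37 (adjusted p 0.00219), Bckdhb 1.14 (0.000554), Hibch 1.03 (0.0238), Ivd 0.97 (0.00233), the phosphatase gene Ppm1k 0.94 (0.00819) and Mccc2 0.78 (0.00946). For 18 minus 6 months Bcat1 had -1.85 (adjusted p 2.74e-05). For 18 minus 14 months, which was added after the values had been seen, Bcat1 had -1.82 (5.69e-06), Mccc1 -1.19 (0.00506), Mccc2 -0.93 (0.00179), Dbt -0.78 (0.0236), Ppm1k -0.71 (0.0359), Ivd -0.67 (0.0238) and Bckdhb -0.61 (0.0395). In the last comparison the call of Ppm1k was lost without any single array of the 14- and 18-month groups except 14-month bone marrow replicate 2 (adjusted p 0.0520 to 0.0964), and with all arrays kept with all probe sets of the table (0.0556) and by the ordinary analysis of variance (0.0648). Groups of 3 arrays were not tested for single outlying arrays.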

How the results depend on the processing

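All 10 genes were lower in bone marrow, averaged over the ages and at each age, under each alternative run for these comparisons, without any 1 array and, over the ages, without the 14-month groups. Fitting only the compared groups gives no value over the ages, and scaling to equal adipocyte markers was not run between the cell types, where the mean difference of those markers was -4.48. In bone marrow the count of genes higher at 14 than at 6 months was 1 and became 2 without dim probe sets, with equal ribosomal protein genes or with equal adipocyte markers, and 0 with only the compared groups, and leaving out 1 array gave 1 to 2 (2 without 6-month replicates 2 or 3 or 14-month replicate 2). From 6 to 18 months it was 0 and became 1 with equal ribosomal protein genes and 4 with equal adipocyte markers, and leaving out 1 array gave 0 to 2. From 14 to 18 months 0 rose and 0 fell, against 1 higher with equal adipocyte markers and 2 lower with array weights, and leaving out 1 array gave 0 to 1 in each direction. In epididymal adipocytes 1 gene rose from 6 to 14 months with equal adipocyte markers (0 as reported), and the 6 that fell became 4 with equal adipocyte markers, 8 with array weights or equal ribosomal protein genes and 4 to 8 when 1 array was left out. From 6 to 18 months 2 rose with only the compared groups, and 0 fell with median centring or an adjusted p under 0.01 and 2 fell with equal adipocyte markers or only the compared groups, against 1 in each direction, with 0 to 1 lower when 1 array was left out. From 14 to 18 months 3 rose with equal adipocyte markers in place of 7, 5 with an adjusted p under 0.01, 10 with array weights, median centring or equal ribosomal protein genes, and 6 to 9 when 1 array was left out. For the differences of age changes between the cell types, equal adipocyte markers gave 3 higher for 14 minus 6 months (5 as reported, 4 to 7 in the other alternatives that keep all arrays), 5 higher for 18 minus 6 months (0 as reported) and 1 lower for 18 minus 14 months (6 as reported, and 3 with an adjusted p under 0.01, 4 with repeated quantile normalization and 9 with median centring), and leaving out 1 array gave 3 to 8 in the last. Most of these counts are given without the share of all probe sets called under the same alternative. The causes were not tested. Values that turned with the scaling were the 18 minus 6 months difference of Bcat2 (0.55 with equal adipocyte markers, -0.02 as reported), the 18 minus 14 months difference of Bckdk (0.51, reported -0.18), Scd1 from 14 to 18 months in epididymal adipocytes (-0.40, reported 0.06) and Tfam over the ages (-0.58 with equal ribosomal protein genes, reported 0.10).

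These scalings move all probe sets. Over the ages equal ribosomal protein genes put the median of all probe sets at -0.70 and that of the 10 genes at -3.68, with 2693 probe sets higher and 18963 lower (6293 and 7307 as deposited). In epididymal adipocytes from 14 to 18 months 539 were higher and 14950 lower with equal adipocyte markers and 7731 and 1785 with median centring (2728 and 2919 as deposited). Alternatives added after seeing the data were equal adipocyte markers and leaving out the 14-month groups. Of 9 same-numbered pairs of arrays of one age 1 had correlated deviations over 0.1 (r from -0.14 to 0.15). Differently numbered pairs of one age had r from -0.16 to 0.15. Their ranges are alike, so these values cannot decide whether same-numbered pools shared mice. With the replicate number as a block shared by the 3 ages, no count of the 10 genes changed. Among these counts were 10 lower over the ages, and in epididymal adipocytes 6 lower from 6 to 14 months and 7 higher from 14 to 18 months. Such a block does not pair arrays within an age, so pairing was not tested by it. Signal near background was not marked in the deposited values, and 3 pools a group limit what age changes can be seen, mostly in 6-month bone marrow.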
